A study of Mus musculus with 4 samples.

Results

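ATAC-seq, in which a transposase cuts and tags accessible DNA, was used to map open chromatin in mouse keratinocytes. A group of 710 open regions was examined, each with its summit inside a coding exon and away from the promoters of the GENCODE basic annotation. The peaks of the 4 libraries were merged wherever they shared at least 1 bp, which gave 82641 regions. Each region took as its summit the highest point of its peak with the largest fold enrichment. A region belonged to the group when it lay more than 2 kb from every transcription start site (TSS) of the GENCODE basic annotation, its summit lay in annotated coding sequence, and the 7-base AP-1 site, TGACTCA or TGAGTCA on either strand, did not occur within 150 bp of the summit. A further 166 coding-exon regions carried an AP-1 site and were kept apart. The 710 regions lay in 669 protein-coding genes.

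The 2 WT and 2 Mapk8-KO libraries came from EpCam+ CD49f-high cells sorted from the skin of age-matched adult female mice on a C57BL/6 background, all of which had received a cream with 5% imiquimod, a TLR7 agonist that inflames the skin, for 8 days. Mapk8 encodes the kinase JNK1. In the Mapk8-KO mice the floxed gene had been cut by K14-Cre, a recombinase whose keratin 14 promoter acts in basal keratinocytes. The study reports that a truncated Mapk8 mRNA remained. The labels name whole skin as source and keratinocytes as cell type, and do not say whether the libraries of a group came from separate animals, so the p-values below measure only the spread between these libraries.

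Open chromatin marks DNA from which nucleosomes are displaced or loosened, mostly at promoters and at enhancers. Coding exons are usually covered by nucleosomes, and the internal ones carry more GC than the introns beside them. Some coding sequence nevertheless holds binding sites for transcription factors or for CTCF, the zinc finger protein that organises chromatin loops, and stretches rich in the dinucleotide CpG within gene bodies can be open or act as start sites that an annotation does not list.

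The lists held between 49856 and 69927 peaks per library, and the relative depth of the libraries over the regions called in all 4 ran from 0.646 to 1.117 of that of WT 1. WT 1 and Mapk8-KO 1 were the deeper pair. Of 8 keratinocyte markers, all had an open region within 2 kb of a start site and 5 had one called in all 4 libraries. These were Trp63, Itga6, Itgb4, Epcam and Cdh1. The best region of Krt14 was called in 3 libraries, and those of Krt5 and Col17a1 in 2. None of 6 immune markers had an open region there. Promoter regions called in all 4 libraries were found for 2 of 4 endothelial markers, Pecam1 and Tek, and for 2 of 5 fibroblast markers, Pdgfra and Col1a1. They were also found for 3 of 5 melanocyte markers, Dct, Pmel and Mlana. In the order WT 1, WT 2, Mapk8-KO 1, Mapk8-KO 2, Tek had 56, 35, 74 and 39 and Itga6 had 54, 31, 56 and 41. Kdr was called in 3 libraries, and Cdh5, Col1a2, Dcn, Lum, Tyr and Sox10 were not called. In each library the highest pileup over 2 regions beside a Krt14 start site was taken, at 38 and 17 in WT and 199 and 109 in Mapk8-KO. No single region there was called in all 4 libraries, so these values do not compare the same DNA between genotypes. The Mapk8 promoter itself was called in all 4, at 96, 73, 109 and 90. No merged region had its summit in a coding exon of Mapk8, so the peaks do not test the deletion.

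Windows of 151 bases around the summit show the kinds of exon in the group. They are given on the coding strand in mm10 coordinates, with coding bases in capitals and the summit at base 76. Camk2d and Col12a1, at chr3:126771735-126771885 on the plus strand and chr9:79648683-79648833 on the minus strand, ranked highest of the 262 regions called in all 4 libraries and show short internal exons with the splice acceptor in the window. Cacna1a, at chr8:84639487-84639637 on the plus strand, shows a last exon dense in CpG. Grhl2, at chr15:37328242-37328392 on the plus strand, and C1qtnf4, at chr2:90889768-90889918 on the plus strand, are among the regions with the largest difference towards WT and towards Mapk8-KO.
Camk2d: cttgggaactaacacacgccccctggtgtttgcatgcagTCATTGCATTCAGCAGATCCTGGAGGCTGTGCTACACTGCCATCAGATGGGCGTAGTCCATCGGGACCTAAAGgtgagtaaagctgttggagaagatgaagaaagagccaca
Col12a1: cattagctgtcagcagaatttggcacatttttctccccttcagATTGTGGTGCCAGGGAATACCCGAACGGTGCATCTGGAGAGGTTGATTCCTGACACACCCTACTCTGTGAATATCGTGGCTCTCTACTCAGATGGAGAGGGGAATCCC
Cacna1a: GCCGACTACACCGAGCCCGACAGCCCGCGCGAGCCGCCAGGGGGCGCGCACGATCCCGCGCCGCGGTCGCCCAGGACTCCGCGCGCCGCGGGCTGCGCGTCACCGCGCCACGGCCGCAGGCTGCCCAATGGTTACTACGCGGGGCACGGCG
Grhl2: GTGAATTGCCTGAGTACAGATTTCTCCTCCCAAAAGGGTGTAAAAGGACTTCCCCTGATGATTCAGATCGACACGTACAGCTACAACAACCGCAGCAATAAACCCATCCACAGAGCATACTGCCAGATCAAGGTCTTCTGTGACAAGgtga
C1qtnf4: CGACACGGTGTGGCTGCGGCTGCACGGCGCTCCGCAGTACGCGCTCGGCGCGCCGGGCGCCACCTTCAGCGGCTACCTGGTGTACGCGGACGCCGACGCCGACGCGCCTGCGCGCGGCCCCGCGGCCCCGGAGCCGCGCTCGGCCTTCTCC
The Camk2d, Col12a1 and Grhl2 windows each hold 3 CpG, the Cacna1a window holds 30 and the C1qtnf4 window 31, at a GC content of 79.5% in both of the latter.

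Ranks rest on the percentile of a region's fold enrichment over local background among all regions called in the same library, averaged over the libraries, for the regions called in all 4. The summit pileup, the number of sequenced fragments that overlap at the summit, is given throughout in the order WT 1, WT 2, Mapk8-KO 1, Mapk8-KO 2. Camk2d, which encodes the delta subunit of a calcium and calmodulin dependent kinase, led with a mean percentile of 98.9 at its coding exon 6 of 20, with pileups of 86, 56, 82 and 53. Scaled for depth these were 71.8, 67.7, 61.4 and 68.7, so that the WT and Mapk8-KO values overlapped. Col12a1, a collagen that associates with fibrils, followed at coding exon 35 of 65 with 109, 84, 116 and 59 and a mean percentile of 98.1. The ubiquitin ligase gene Trim23 had 81, 43, 69 and 41, and Gpd2, the mitochondrial glycerol-3-phosphate dehydrogenase, had 80, 57, 80 and 39.

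Of the other 6 regions in this top 10, 3 were rich in CpG. Cacna1a, a voltage-gated calcium channel of neurons, had pileups of 98, 63, 106 and 82 in its last coding exon, number 47, at a GC content of 80.1% over 301 bases, and no region at its own promoter was called in any library. Prdm2, a zinc finger methyltransferase of the PR domain family, had 136, 142, 177 and 103. Kank3, which belongs to a family of actin regulators, had 106, 70, 93 and 54 in an exon of 1251 bp. The remaining 3, Plekha5, Myh7b and 4930564D02Rik, had means of 94.1 to 96.4 in percentile, and Myh7b, a myosin heavy chain, lay 2113 bp from a TSS and so just inside the limit of the rule. In 5 of the 10, Col12a1, Gpd2, Plekha5, Kank3 and Myh7b, both WT libraries lay above both Mapk8-KO libraries after scaling, and in none was the order reversed, where 20.4% and 20.3% of all regions tested did not overlap in these directions. None of the 10 passed limma, with a smallest adjusted p of 0.460.

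**Figure D1:**
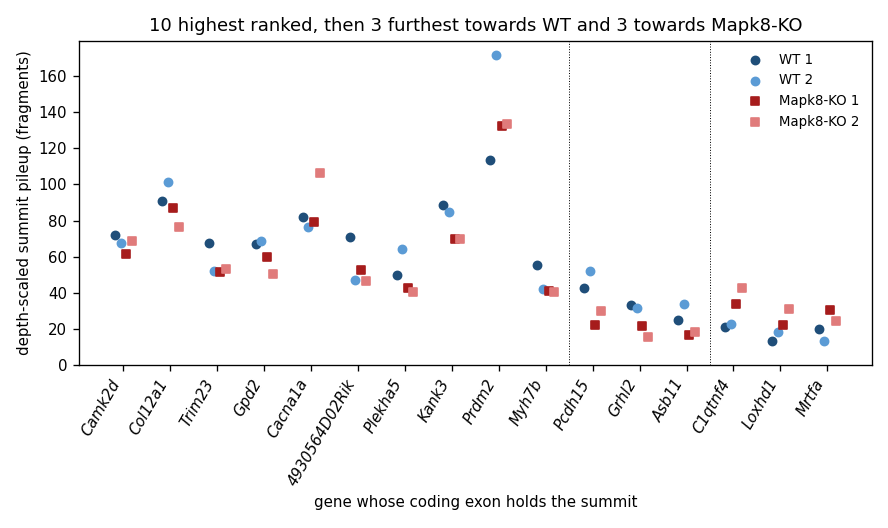
Depth-scaled summit pileup (fragments) of 16 open coding exons in the 4 libraries, 1 point per library, with WT as circles and Mapk8-KO as squares. Left of the first dotted line are the 10 highest ranked, where Prdm2 reaches 172 in WT 2, followed by the 3 non-overlapping exons with the largest difference towards WT and the 3 with the largest towards Mapk8-KO, all at or below 52.0.

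Coding sequence away from promoters was not poor in open regions. The 710 regions came to 26 per Mb of the 27.3 Mb of such coding sequence, against 21.2 per Mb for introns and 13.5 per Mb between genes, counting in each case regions more than 2 kb from a TSS and without an AP-1 site. Their width had a median of 365.5 bp, close to the 360 bp of intronic regions. In strength they also lay close to the intronic regions: among regions called in all 4 libraries, the median of the mean percentile was 60.3 for coding exons and 56.3 for introns. These figures describe the merged peaks and carry no test, since regions are not replicates.

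The open interval was seldom confined to the exon. A median of 55.3% of a region's bases was coding, and only 126 of the 710 regions were coding over their whole length, while in 354 the region spanned the entire coding exon. The summit lay a median of 51.0 bp from the nearest edge of the exon, with quartiles of 24 and 117.5 bp. Most genes, 632, held a single such region, 34 held 2, and 3 genes held at least 3. Eppk1, which encodes the cytoskeletal linker epiplakin, held 4 in its single coding exon of 10374 bp. Of these, 3 lay in repeated sequence with 2 to 4 matches in the genome, their own place included, so their assignment to this copy is uncertain, and the fourth was called in WT 1 and Mapk8-KO 2 at pileups of 17 and 30. Col6a3, a chain of the microfibrillar collagen VI, held 3, of which the one in coding exon 36 was called in all libraries at 41, 35, 47 and 35 and matched 3 places in all. Loxhd1, a gene of hearing, held 3 as well.

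A match of at least 90% identity over at least 150 bp at another place in the genome was found for 40 of the 710 regions, 5.63%, and for these the assignment of reads is uncertain, although the study's methods state that reads mapping to several places were removed. The extreme was Gm21738, with 51 matches, the most the search returned for any region, and pileups of 788, 709, 923 and 951, which is the isolated point at the far right in the plot of differences against level. Its fold over local background was only 4.12 to 4.46.

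Open coding exons were richer in GC than open introns and open regions between genes. The median GC content of the 301-base window was 54.8% (95% interval of the median 53.8 to 55.8%), against 48.2% for open introns, 47.8% for open regions between genes, and 48.5% for all 153111 coding exons away from promoters without an AP-1 site, measured at their midpoints with 1 transcript per gene. CpG-rich windows, defined by a GC content of at least 55% and a CpG frequency of at least 0.65 of that given by base composition, made up 143 of the 710, 20.1% (Wilson 95% interval 17.4 to 23.2%). The share was 0.971% of open introns, 2.14% of open regions between genes and 1.02% of all such exons. Over all merged regions, promoters included, it was 12.8%, and within 2 kb of a TSS it was 44.3%. Weighted by length, exons with a CpG-rich midpoint held 2.65% of coding bases.

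**Figure D2:**
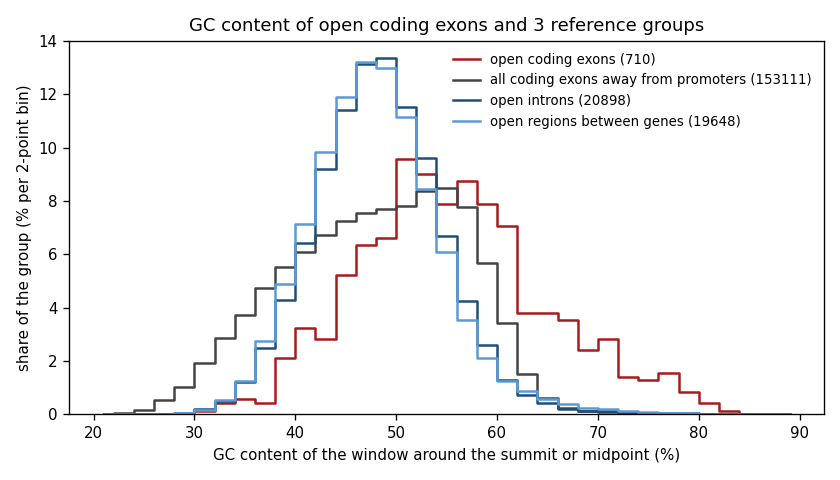
GC content of the 301-base window (percent, horizontal axis) against the share of each group in bins of 2 percentage points (vertical axis), for 710 open coding exons, all 153111 coding exons away from promoters, 20898 open introns and 19648 open regions between genes. The line of the open coding exons is shifted to the right of the other 3, with a median of 54.8%, and has a shoulder above 60%.

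Long exons held about the share of open regions that they held of coding bases. Exons over 500 bp held 25.4% of the open regions (22.3 to 28.7%) and 23.3% of the coding bases, though only 3.41% of the exons. Last coding exons held 21.8% (18.9 to 25.02%) and 16.4% of the bases, and genes with a single coding exon 4.08% (2.86 to 5.80%) and 3.13%. Within exons over 500 bp, 38.9% of the 180 open regions were CpG-rich, against 8.08% of the 5223 long exons at their midpoints.

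**Figure D3:**
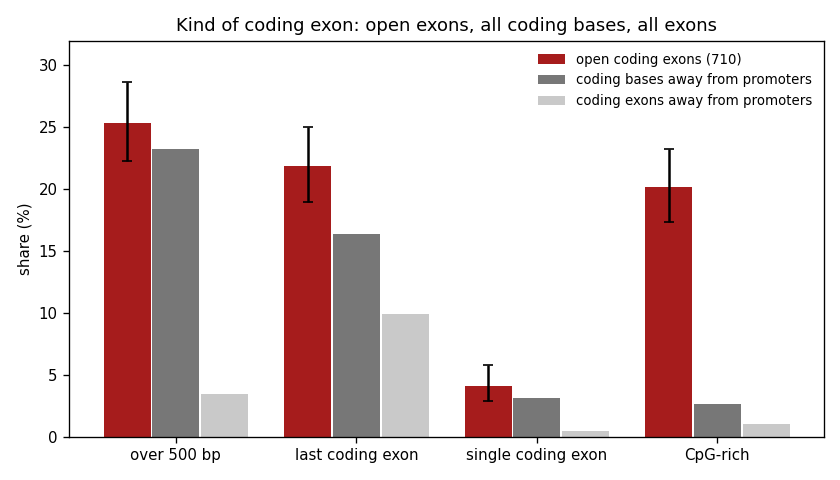
Share in percent (vertical axis) of exons over 500 bp, last coding exons, single coding exons and CpG-rich windows among the 710 open coding exons (with Wilson 95% intervals), among coding bases and among coding exons away from promoters. The open exons stand far above the coding bases for CpG-rich windows only, at 20.1% against 2.65%.

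The CpG-rich regions differed from the others in the kind of exon and gene they came from. Their coding exon had a median length of 493 bp against 175 bp for the other 567 regions, and 44.1% of them (36.2 to 52.2%) lay in a last coding exon against 16.2% (13.4 to 19.5%). The promoter of their own gene was called in all 4 libraries for 44.1% (36.2 to 52.2%) against 65.3% (61.2 to 69.1%) of the other regions and 66.7% of all coding exons. For 40.6% of them (32.9 to 48.8%) no region at the gene's promoter was called in any library, against 20.99% (17.8 to 24.5%) of the others. They were called in all 4 libraries more often, 76 of 143 or 53.1% (45.0 to 61.1%), against 186 of 567 or 32.8% (29.1 to 36.8%).

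Some CpG-rich exons called in all 4 libraries are given as examples, and the kinds of gene that held such exons were not counted. The following were chosen after their values had been seen. The last coding exon of Lhx2, a homeobox gene of hair follicle stem cells and brain, had pileups of 41, 31, 43 and 38. That of Spi1, which encodes the myeloid factor PU.1, had 27, 21, 48 and 32, although the promoter of Spi1 was not called in any library. Scaled for depth the Spi1 values were 22.6, 25.4, 35.9 and 41.5, with both Mapk8-KO libraries above both WT libraries (log2 difference -0.69 ± 0.26 SE, limma adjusted p = 0.302). Plvap, a membrane protein of endothelial fenestrae, had 52, 46, 62 and 40 in an exon of 707 bp, again with its promoter not called. The last exon of Maff, a small MAF bZIP factor, had 42, 22, 33 and 26, and the last exon of Wnt10a, a ligand of the WNT pathway, had 54, 25, 53 and 36. The Wnt10a exon ranked low, at a mean percentile of 13.4. After scaling, the WT and Mapk8-KO values of Lhx2, Plvap, Maff and Wnt10a overlapped.

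The distance limit cut through a continuous range. Of the 710 regions, 35 lay 2 to 2.5 kb from a TSS and 42.9% of these were CpG-rich, while 51 coding-exon regions without an AP-1 site lay 1.5 to 2 kb from one, just outside the rule, with 47.1% CpG-rich. The full GENCODE annotation lists more transcripts than the basic set, and 191 of the 710 regions, 26.9% (23.8 to 30.3%), lay within 2 kb of a TSS that only the full set holds. The share was 35.7% (28.3 to 43.8%) of the CpG-rich regions, 24.7% (21.3 to 28.4%) of the others and 9.29% (8.90 to 9.69%) of open introns. It was not counted for all coding exons, so whether open exons differ from coding exons in general was not tested. Cacna1a, 163 bp from such a start, and Kank3 were among them, and Camk2d, Col12a1 and Prdm2 were not. The window of the AP-1 criterion left 26 regions with a site 151 to 250 bp from the summit.

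Consensus sites of transcription factors were counted within 150 bp of the summit on both strands, as descriptions of the letters present. The 12-base CTCF consensus was found in 23 regions, 3.24% (2.17 to 4.81%), against 3.54% of open introns, 4.39% of open regions between genes, 2.60% of all merged regions and 0.242% of all coding exons away from promoters. The 3 such regions with the highest mean percentile, taken over the libraries that called them, were in Zfp362, Atn1 and Frmpd4. Their sites are shown with 30 bases on each side, the CTCF match in capitals, on the strand of the match in mm10: Zfp362 at chr4:128776913-128776984 on the minus strand, Atn1 at chr6:124745534-124745605 on the plus strand and Frmpd4 at chrX:167497931-167498002 on the plus strand.
Zfp362: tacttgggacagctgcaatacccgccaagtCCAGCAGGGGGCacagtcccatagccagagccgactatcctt
Atn1: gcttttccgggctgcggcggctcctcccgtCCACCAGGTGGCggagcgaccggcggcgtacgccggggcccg
Frmpd4: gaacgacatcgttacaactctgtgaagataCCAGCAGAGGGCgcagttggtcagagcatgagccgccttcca
The centre of the match lay 22 bp from the summit in Frmpd4, 71 bp in Atn1 and 139 bp in Zfp362. In all 3 the match lay outside the coding exon that held the summit, and the capitals here do not mark coding bases. Zfp362, a zinc finger gene, had pileups of 70, 57, 92 and 53. Atn1, the atrophin-1 corepressor, had 103, 81, 110 and 82. Frmpd4, a scaffold protein of synapses, was called in WT 1 at 35 and in Mapk8-KO 2 at 27.

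The SP factor box GGGCGG was present in 25.8% of the open coding exons (22.7 to 29.1%) against 10.2% of open introns, 20.1% of all merged regions and 6.81% of all coding exons. It occurred in 54.5% of the CpG-rich regions (46.4 to 62.5%) and in 18.5% of the others (15.5 to 21.9%). The ETS core CCGGAAG was present in 4.23% (2.98 to 5.97%) against 1.66% of introns, 4.10% of all merged regions and 2.72% of all coding exons. The E-box CACGTG was present in 8.31% (6.50 to 10.6%) against 6.09% of introns, 6.43% of all merged regions and 4.52% of all coding exons.

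Sites of factors known from keratinocyte enhancers were less frequent than in open introns, although the interval for grainyhead reached the intronic share. The TEAD core GGAATG was present in 13.9% (11.6 to 16.7%) against 19.9% of introns, 18.4% of all merged regions and 15.5% of all coding exons, and the RUNX core TGTGGTT in 4.08% (2.86 to 5.80%) against 6.67%, 5.87% and 5.52%. A pair of p63 core sequences was present in 9.30% (7.37 to 11.7%) against 14.5% of introns, 11.9% of all merged regions and 7.35% of all coding exons. The grainyhead site AACCNGTT was present in 3.38% (2.28 to 4.98%) against 4.93%, 4.06% and 2.25%, and the C/EBP site TTGCNNAA in 13.9% (11.6 to 16.7%) against 17.8%, 15.6% and 11.6%. In the same order, the CRE palindrome TGACGTCA was present in 0.704% (0.301 to 1.64%) against 0.450%, 0.927% and 0.368%.

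A site that differs from the AP-1 consensus at its centre alone, TGAATCA or TGATTCA, which the rule did not use, was present in 60 regions, 8.45% (6.62 to 10.7%), against 10.3% of open introns, 8.36% of all merged regions and 3.24% of all coding exons. All but 3 of the 60 were outside the CpG-rich class, where the share was 10.1% (7.84 to 12.8%). The Grhl2 exon holds such a site, TGATTCA, in the window shown above.

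The question put to WT and Mapk8-KO was whether open coding exons differed with the loss of JNK1. In the share called, the difference was smaller than the spread between libraries. WT 1 called 78.9% of the exons and WT 2 called 52.1%, against 77.9% for Mapk8-KO 1 and 55.5% for Mapk8-KO 2. In the same order, all merged regions were called in 83.8%, 65.2%, 83.2% and 59.1% and open introns in 80.01%, 56.6%, 80.04% and 52.9%. The mean was 65.5% ± 18.9 (SD, n = 2) in WT and 66.7% ± 15.8 (SD, n = 2) in Mapk8-KO, a difference of -1.20 percentage points with p = 1.0 in the two-sided exact permutation test, which with 2 against 2 libraries cannot go below 0.33. With every list shortened to its 49856 peaks of smallest q, the shares of open coding exons were 48.3%, 44.8%, 49.7% and 55.5%, both Mapk8-KO libraries above both WT libraries, and the difference was -6.06 percentage points (exact permutation p = 0.33, the smallest possible). Open introns differed by -1.78 points and all merged regions by 0.25 points on the same lists. The CpG-rich regions were called in 91.6%, 65.7%, 80.4% and 68.5% and the others in 75.7%, 48.7%, 77.2% and 52.2%.

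**Figure D4:**
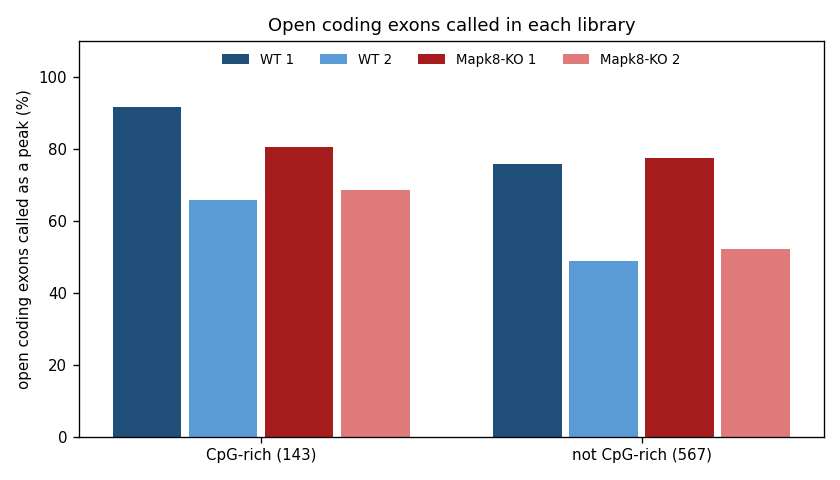
Share of open coding exons called as a peak (percent, vertical axis, from 0) in each of the 4 libraries, for 143 CpG-rich and 567 other exons. In both classes WT 1 and Mapk8-KO 1, the deeper libraries, stand above WT 2 and Mapk8-KO 2, and the CpG-rich exons were called more often in every library.

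Of the 710 regions, 262 were called in all 4 libraries, 36.9% (33.4 to 40.5%), against 39.1% of open introns and 48.6% of all merged regions, and 125, 131 and 192 were called in 3, 2 and 1. The regions called once were weak. Of the 192, 78 came from WT 1 and 75 from Mapk8-KO 1, with a median pileup of 16.0 in each, and only 10 from WT 2 and 29 from Mapk8-KO 2. Absence of a call is therefore absence at that library's depth.

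The pileup could be compared between genotypes only for the 262 regions called in all 4 libraries. Their median pileups were 37.5, 26, 40 and 24. On the log2 scale, centred for depth and given as deviations from each region's mean, the library medians were 0.03, -0.02, -0.04 and 0.04, and the WT minus Mapk8-KO difference of these medians was 0.0076 (p = 1.0, two-sided exact permutation test). The median of the differences of the single regions was -0.0040, with quartiles of -0.22 and 0.20, and that of all 40159 regions tested was -0.0052, with quartiles of -0.19 and 0.20.

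No open coding exon passed an adjusted p of 0.05 in limma, fitted with a variance trend and adjusted by Benjamini-Hochberg over all 40159 regions, in either direction. Over all regions, 0.214% were called higher in WT and 0.0174% higher in Mapk8-KO, so a count of 0 among 262 lies near the background. At an unadjusted p under 0.05 there were 27 of the 262, 10.3% (7.18 to 14.6%), 14 towards WT and 13 towards Mapk8-KO. The share over all regions was 10.4%. The smallest adjusted p was 0.139. The WT and Mapk8-KO values did not overlap in 52 regions with WT higher, 19.8%, where the background over all regions was 20.4%, and in 40 regions with Mapk8-KO higher, 15.3%, where it was 20.3%. Without Mapk8-KO 1, 6 exons were called higher in WT and 4 higher in Mapk8-KO of 271, as the calls over all regions rose to 1577 and 370 of 40475.

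**Figure D5:**
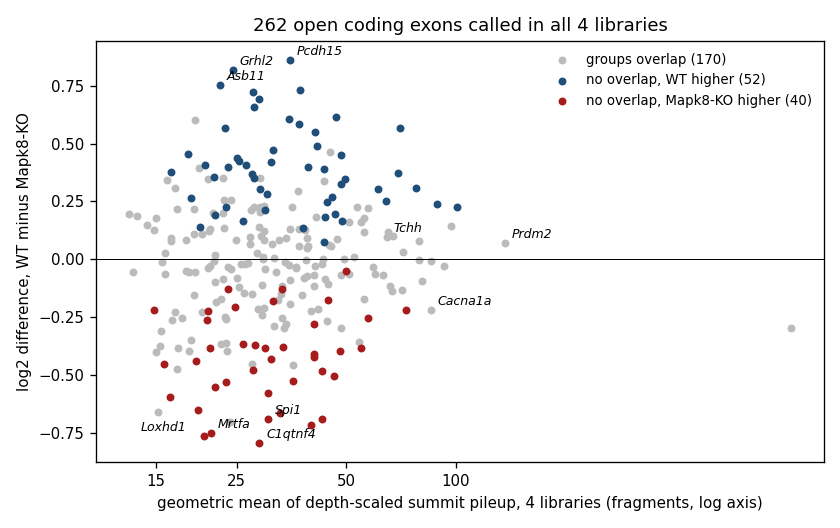
Geometric mean of the depth-scaled summit pileup over the 4 libraries (fragments, log axis) against the log2 difference, WT minus Mapk8-KO, for the 262 open coding exons called in all 4 libraries, 1 point per exon. Blue and red points mark the 52 and 40 exons whose WT and Mapk8-KO libraries do not overlap. They spread to both sides of 0 and no point passed an adjusted p of 0.05 in limma.

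The exons with the largest differences towards WT among those without overlap were in Pcdh15, Grhl2 and Asb11. The last coding exon of Pcdh15, a protocadherin of hair cell tip links, had pileups of 51, 43, 30 and 23, at a log2 difference of 0.86 ± 0.25 (SE, limma adjusted p = 0.139). Scaled for depth the values were 42.6, 52.0, 22.5 and 29.8, with both WT libraries above both Mapk8-KO libraries. Coding exon 9 of Grhl2, one of the grainyhead factors of epithelia, had 40, 26, 29 and 12, or 33.4, 31.4, 21.7 and 15.6 after scaling, at 0.82 ± 0.29 (limma adjusted p = 0.242). Its own promoter was called in all 4 libraries. Without Mapk8-KO 1 the Grhl2 difference was 1.06, in a fit that leaves 1 library in that group and in which other exons differed by more. Asb11, a SOCS box protein of ubiquitin ligases, had 30, 28, 22 and 14, at 0.75 ± 0.29 (limma adjusted p = 0.311).

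Towards Mapk8-KO the largest were in C1qtnf4, Loxhd1 and Mrtfa. The single coding exon of C1qtnf4, a secreted protein with C1q domains, had pileups of 25, 19, 45 and 33, and scaled for depth 20.9, 23.0, 33.7 and 42.8, so that both Mapk8-KO libraries were above both WT libraries. Its log2 difference was -0.79 ± 0.27 (limma adjusted p = 0.225). It was CpG-rich and its promoter was not called in any library. Coding exon 20 of Loxhd1 had 16, 15, 30 and 24 (log2 difference -0.76 ± 0.30). Mrtfa, the actin-responsive cofactor of SRF, had 24, 11, 41 and 19 in coding exon 12 (-0.75 ± 0.30). Neither passed the test, with adjusted p of 0.323 and 0.331 in limma.

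Calls confined to both libraries of a genotype were few. Among the open coding exons, 13 had a call from each WT library and from neither Mapk8-KO library, 1.83% (1.07 to 3.11%), against 2.17% of all merged regions. In both Mapk8-KO libraries only, 18 were called, 2.54% (1.61 to 3.97%), against 1.65% of all merged regions. The WT-only exons with the highest pileup in their lower library were the last coding exon of Secisbp2, a selenoprotein translation factor, at 34 and 30, an exon of 4441 bp in Akap11, an anchoring protein for protein kinase A, at 33 and 24, and an exon of the homeobox family gene Pax8 at 24 and 20. The Mapk8-KO-only exons were in Rgmb, a coreceptor of BMP ligands, at 50 and 29, in the zinc finger gene Zfp219 at 34 and 27, and in Wt1, a zinc finger factor of kidney and gonad, at 26 and 20.

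Such a call depends on the local background as well as on the pileup. The folds over background of the Rgmb exon were 4.54 and 4.35 and those of the Secisbp2 exon were 4.30 and 5.18, against 10.9 and 9.87 for Akap11. Klf5, a zinc finger factor of basal keratinocytes, was called at 82, 31 and 67 in the first 3 libraries and not in Mapk8-KO 2. What part the local background had in these calls was not tested.

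At least 1 open coding exon was held by 669 of 21924 protein-coding genes, 3.05%, and the counts of the gene families below stand beside that share. None of 13 JNK and AP-1 genes, 10 genes of the EGFR family and its ligands, or 56 clustered protocadherins held one. The 23 desmosome and hemidesmosome genes held none either, although 2 regions with an AP-1 site lay in their coding exons. Of 53 keratin genes, Krt20 was called in Mapk8-KO 2 alone, at 9, and Krt88 in both Mapk8-KO libraries, at 19 and 13, a share of 3.77% of the keratin genes. Among 49 genes of the cornified envelope, the last exon of Tchh, the trichohyalin of the hair root sheath, was called in all 4 libraries at 75, 59, 98 and 41 (log2 difference 0.10 ± 0.20, limma adjusted p = 0.914). Collagens held 4 regions in 2 of 44 genes, Col6a3 and Col12a1.

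The 496 zinc finger genes recognised by symbol held 20 regions in 19 genes, 3.83% of these genes (Wilson 95% interval 2.47 to 5.91%). Of the regions, 6 were called in all 4 libraries and 3 were CpG-rich. The last exon of Zfp771 was the strongest of these by mean percentile, at 56, 49, 71 and 51, and none of the 6 had non-overlapping values. A list of 87 homeobox genes held 6 regions in 5 genes, Irx4, Pitx3, Pax8, Lhx2 and Dlx5, a share of 5.75% (2.48 to 12.8%). Of the 6 regions, 3 were CpG-rich. The homeobox genes Rax and Hlx lay outside this list and held regions too. The share therefore describes the list and not homeobox genes as a whole. Dlx5, a factor of craniofacial and limb development, was called at 51, 73 and 32 and not in WT 2. A list of 69 chromatin regulators, the Kmt, Setd, Chd, Smarc, Arid and Kdm families with Ep300 and Crebbp, held 3 regions in 3 genes, 4.35% (1.49 to 12.0%). Prdm2, Smyd2 and L3mbtl3 lay outside this list and held regions too. Of the 3 listed genes, the chromatin remodeller Chd2 had 47, 28, 35 and 15 in coding exon 27, without overlap (0.69 ± 0.27, limma adjusted p = 0.323). Kdm5a and Kdm5c, both demethylases of histone H3 lysine 4, were called in 1 library each.

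Regions with AP-1 sites in coding exons gave a measure of how far the group without one differed. The 166 with a site were called in 89.2%, 66.3%, 85.5% and 49.4%, a mean of 77.7% in WT and 67.5% in Mapk8-KO, and in the 76 called in all 4 libraries the median log2 deviations were 0.13, 0.12, -0.00045 and -0.20. The WT minus Mapk8-KO difference of their library medians exceeded that of the open coding exons without a site by 0.22 on the log2 scale, with the 2 WT libraries above both Mapk8-KO libraries (exact permutation p = 0.33, the smallest this design can give). In the 21 regions with a site differing at its centre that were called in all 4 libraries the medians were 0.10, 0.04, -0.03 and -0.12, a difference of 0.14 (exact permutation p = 0.33), and in the 241 without such a site it was -0.0074 (exact permutation p = 1.0). None of the 76 or the 21 passed limma.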

How the data were processed

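The deposited files were 4 lists of peaks, called per library with MACS2. Per the labels and the submitters' processing notes, reads were trimmed with Trimmomatic 0.36, aligned to mm10 with STAR 2.5.3 and processed with Picard and SAMtools. The study's methods name Bowtie2 in place of STAR, removal of reads mapping to several places, and MACS2 in paired-end fragment mode at a q limit of 0.05 with sub-peak summits. The largest q in the deposited lists was 0.0097, below that limit. Each deposited line gave a score, a fold enrichment over local background (a ratio), −log10 values of p and q, and the summit as an offset, all made by the authors. No read totals were given, so depth in reads was unknown.

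From fold and −log10 p, which both follow from the pileup and the local background, the summit pileup was recovered, and at least 99.996% of values were whole within 0.05. Log2 pileups were centred on the median log2 ratio over the 40159 regions called in all 4 libraries, and tested with limma 3.58.1 (R 4.3.3) with a variance trend, Benjamini-Hochberg adjusted over all of these at 0.05, WT against Mapk8-KO. A member entered this test only when called in all 4 libraries, 262 of 710. On simulated pileups over the 40159 regions, 66.3% of 2-fold and 100.0% of 4-fold changes were recovered, with 8 false calls. Recovery among the members alone was not measured. Their median pileups of 37.5, 26, 40 and 24 lay below the 49, 34, 54 and 30 of all regions called in all 4 libraries. Values of single libraries were compared by the exact permutation test over 6 assignments of the labels, and shares were given with Wilson 95% intervals, which cover counting error only. Coding exons and start sites were those of the GENCODE M21 basic annotation, and sequence came from GRCm38, the mm10 assembly, read from the RefSeq copy. Other copies were sought with minimap2 2.31.

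Most genes were named by a rule: the 10 highest ranked regions, the 3 with the largest difference in each direction without overlap, the 3 strongest called in 1 genotype only, genes with at least 3 regions, the 3 highest ranked with a CTCF site, and regions in the gene lists of the text. Spi1, Plvap, Maff, Wnt10a and Gm21738 were named outside this rule, after their values had been seen. Rax, Hlx, Smyd2 and L3mbtl3 were named only as genes that the lists left out. The regions, the rule and the lists were chosen with earlier results of these data known. Alternatives covered the calling threshold, the membership, the centring, the replicate block and each library left out.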

Additional observations from a re-analysis of the deposited data

How the results depend on the processing

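With 2 libraries per genotype the exact permutation test of 1 value per library could not pass 0.05. Of 88 recomputed values for 8 results, 66 kept their direction and stayed within 1.5 times of a count. The difference in the share called, -1.20 percentage points, was -6.06 with lists of equal length, 0.97 when regions with an AP-1 site were included, and ran from -14.6 to 12.2 with a library left out. The 13 exons called in WT only became 7 with lists of equal length and 8 when start sites of every annotated transcript were used. With a library left out they ran from 22 to 91, and the 18 called in Mapk8-KO only ran from 24 to 93. Fewer libraries then have to hold or to lack the call. The highest counts came without WT 2 for WT only and without Mapk8-KO 2 for Mapk8-KO only. The limma counts of 0 stayed at 0 under every other centring, membership and block tried, and ran from 0 to 6 (higher in WT) and 0 to 4 (higher in Mapk8-KO) with a library left out, the highest in both cases without Mapk8-KO 1, and the cause was not tested. Leaving out a library left 1 in its group, assumed to vary like the others. The median log2 difference, 0.0076, was -0.053 with centring on regions away from promoters, -0.018 for exons more than 1 kb from a TSS, -0.041 with centring on each library's median pileup, -0.021 for CpG-rich exons alone, and ran from -0.019 to 0.018 with a library left out, all with exact permutation p of at least 0.33. The centrings on the median pileup, the CpG classes and the exons without another copy were added after seeing the data. The median GC content was 53.1% with 250 bp on each side of the summit.

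The libraries share replicate numbers, but the labels do not say what a number marks. The difference between replicates 1 and 2 in WT and that in Mapk8-KO correlated at r = 0.039 over 40159 regions, which share the 4 libraries. With the replicate block, limma called 0 and 0 open coding exons, 272 and 36 regions in all against 86 and 7 without it, the paired difference in the share called was -1.20 percentage points and the median log2 difference was 0.0076. With the block and centring within 10 GC classes the counts were 0 and 0 and the median 0.044.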
